A study of Mus musculus with 4 samples.

Results

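Immediate early genes are switched on within minutes of a stimulus, before any new protein is made. This account follows 10 of them, Fos, Fosb, Junb, Egr1, Egr2, Egr3, Egr4, Nr4a1, Npas4 and Arc, across the cell classes of the mouse prefrontal cortex (PFC) during postnatal development. They were taken by name, with earlier results of these data known, and all 10 were found among the 29281 genes listed in the 4 expression matrices. Single-cell RNA had been measured by the BD Rhapsody method in the PFC of C57BL/6J mice at postnatal day 1 (P1), P4, P10 and P84 (called adult), with no treatment. All mice were female by the methods, with 2 mice per age. Each age is 1 library with no map from cells to mice, so every library is 1 sample, no difference between ages could be tested, and all intervals below cover counting error only. Brains were sliced in ice-cold artificial cerebrospinal fluid, the PFC was dissected in a dish holding Actinomycin D, a blocker of transcription, and the pieces were then digested with protease and papain. No library was dissociated in another way, as far as the methods say. Transcription in the living animal and transcription during dissociation therefore cannot be told apart by design, and the measurements show only in which classes and at which ages the transcripts were found.

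In neurons, calcium entry through synaptic receptors and channels drives these genes through CREB, MEF2 and SRF, transcription factors that sit on their promoters beforehand. Fos, Fosb and Junb encode subunits of AP-1, a paired leucine-zipper factor, while Egr1 to Egr4 encode zinc-finger factors and Nr4a1 an orphan nuclear receptor. Npas4 encodes a factor that is largely restricted to neurons and answers to calcium, and Arc encodes a synaptic protein that acts on glutamate receptor trafficking. Most of the others also respond to growth factors, stress and tissue handling in many cell types, and enzymatic dissociation is known to induce them in glia and endothelial cells.

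The promoters of the genes are shown because a short motif recurs in them. RefSeq promoter sequences (GRCm38.p6) were used for 7 of the 10 genes, and none was used for Arc, Egr1 and Egr3. Capitals mark the core of the cAMP response element (CRE core), the letters TGACG or, on the other strand, CGTCA, and the CArG box, the site of SRF. The first 4 lines give the 200 bases before the start site on the gene's own strand, and the last 2 give 30-base stretches around the matches of Egr2 and Npas4, all 5′ to 3′.
Fos, chr12:85473690-85473889, plus strand: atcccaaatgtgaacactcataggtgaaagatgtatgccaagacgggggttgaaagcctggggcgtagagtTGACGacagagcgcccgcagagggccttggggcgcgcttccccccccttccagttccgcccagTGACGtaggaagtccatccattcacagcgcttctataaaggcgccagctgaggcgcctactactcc
Junb, chr8:84978749-84978948, minus strand: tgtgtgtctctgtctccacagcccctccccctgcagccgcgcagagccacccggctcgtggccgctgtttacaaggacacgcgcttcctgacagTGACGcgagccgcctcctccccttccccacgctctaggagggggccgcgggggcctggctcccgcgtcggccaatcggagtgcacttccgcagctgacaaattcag
Egr4, chr6:85513590-85513789, minus strand: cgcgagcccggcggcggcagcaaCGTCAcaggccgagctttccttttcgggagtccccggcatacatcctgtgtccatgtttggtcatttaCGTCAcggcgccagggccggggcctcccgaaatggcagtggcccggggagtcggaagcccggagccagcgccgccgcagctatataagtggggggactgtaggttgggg
Nr4a1, chr15:101266646-101266845, plus strand: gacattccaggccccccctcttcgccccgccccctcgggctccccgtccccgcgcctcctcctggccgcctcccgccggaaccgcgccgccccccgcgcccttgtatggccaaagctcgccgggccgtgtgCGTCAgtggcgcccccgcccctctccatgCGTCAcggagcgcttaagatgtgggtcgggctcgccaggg
Egr2, chr10:67537789-67537818, plus strand: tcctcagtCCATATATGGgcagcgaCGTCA
Npas4, chr19:4990126-4990155, minus strand: ttcgaCGTCAcgggaTGACGtcggaagtct

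A CRE core lay within 250 bases before the start site in 9 of the 11 windows of the 7 genes, of which 5 are windows of Egr2 that partly overlap, against 17.8% of the 32851 promoter windows of the table. Nr4a1 held 4 of them, of which 2 lie before the stretch printed, Fos, Egr4 and Npas4 held 2 each, Fosb and Junb held 1 each, and Egr2 held them in 3 of its 5 windows. Within these 250 bases, the CArG box was found in 4 of the 5 Egr2 windows and in no window of the other 6 genes, against 1.47% of all windows. Sites further upstream were not searched, so absence here is not absence from the promoter. The full palindrome TGACGTCA, which contains the core, was in 1.55% of all windows and in none of these genes, and neither were the AP-1 letters TGACTCA or TGAGTCA (4.46% of all windows) nor the EGR letters GCGTGGGCG (0.536%). These are letter matches within a fixed window on both strands and say nothing of binding in these cells.

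The cells of each library were grouped into clusters without use of the 10 genes. A cluster was given the name of the marker list that led it, the blood list aside, and each name means a class that is X-like by its markers. Glutamatergic cells numbered 7902, 12397, 7444 and 6633 at P1, P4, P10 and in the adult, and GABAergic cells 1713, 3103, 1981 and 1394. Astrocytes, oligodendrocyte precursor cells (OPC), oligodendrocytes, microglia and vascular cells made up most of the remainder at P4, P10 and in the adult. At P1, proliferating (575) and Eomes-positive cells (507) were more numerous than any of these. Only classes of at least 50 cells were compared, which left out P1 microglia (34 cells). Levels are the UMIs of a gene summed over the cells of a class, per 1000000 UMIs of that class (CPM), with mitochondrial and ribosomal protein genes left out of the total. A UMI marks 1 captured molecule at its 3′ end, so that levels of different genes are not scaled by length. The P1 library stood apart in its making: it came from a later version of the processing pipeline on another bead type, its header names it P0, and UMIs of Y-linked genes were found in 55.3% of its cells against at most 0.241% in the other 3 libraries. P1 levels stand beside those of the other ages for description, ratios with P1 are given apart from those among P4, P10 and adult, and the part of these differences in the P1 values was not tested.

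In Glutamatergic cells, the AP-1 genes stood higher at P10 than at P4 and higher again in the adult. Fos stood at 0.813, 5.24, 39.8 and 56.6 CPM at P1, P4, P10 and in the adult. Fosb stood at 0.221, 0.707, 11.8 and 20.8 CPM, and Junb at 2.98, 7.88, 33.6 and 48.4 CPM. The exact Poisson intervals of P4, P10 and adult did not overlap for any of the 3 genes. The step from P4 to P10 was the wider one for each: 7.60-fold (95% interval 7.10 to 8.14) for Fos, 16.6-fold (13.9 to 20.03) for Fosb and 4.26-fold (4.02 to 4.52) for Junb, against 1.42-fold, 1.77-fold and 1.44-fold from P10 to adult.

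**Figure D1:**
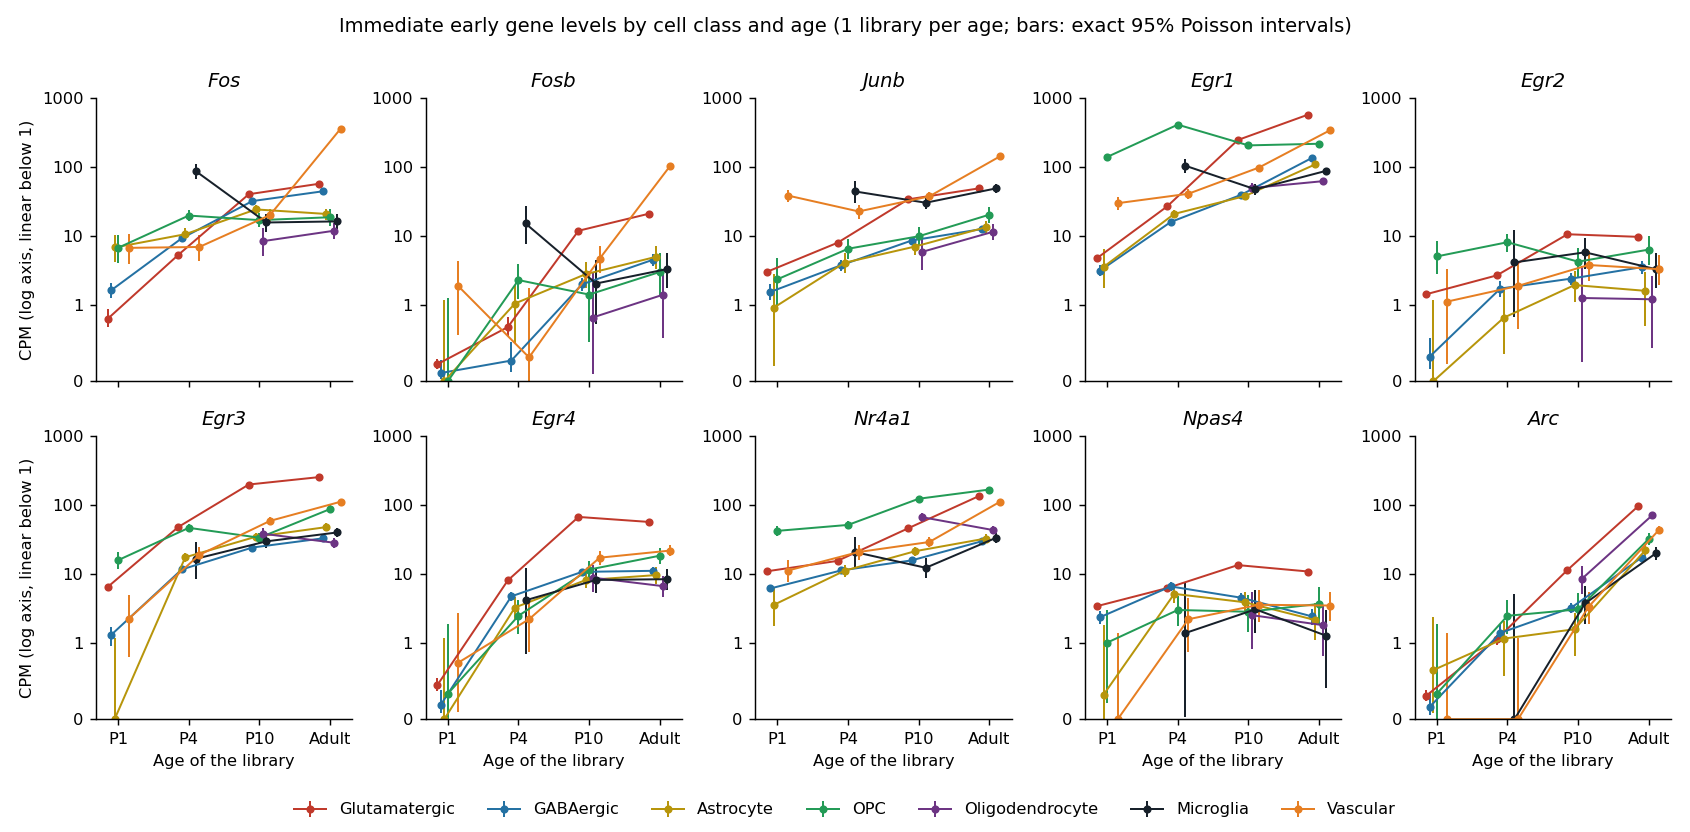
Level of each of the 10 genes in CPM (log axis, linear below 1) against the age of the library, 1 line per cell class, with exact 95% Poisson intervals as bars. All 10 Glutamatergic lines stand at least 2.15-fold higher at P10 than at P4, Fos reaches 354.8 CPM in adult vascular cells, and Egr1 in OPC is highest at P4 (406 CPM).

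Egr1 and Egr3 were the most abundant of the 10 genes in Glutamatergic cells from P4 on. Egr1 stood at 4.66, 26.5, 243 and 570 CPM, and Egr3 at 6.37, 47.2, 195.5 and 251 CPM. Egr4 stood at 0.443, 7.97, 66.3 and 56.04 CPM, and Egr2 at 1.41, 2.65, 10.5 and 9.60 CPM. Egr1 and Egr3 thus stood higher in the adult than at P10 and higher at P10 than at P4, whereas Egr2 and Egr4 were highest at P10, with adult over P10 ratios of 0.9175 (0.852 to 0.988) and 0.846 (0.821 to 0.872).

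Nr4a1 and Arc also stood higher at P10 than at P4 and higher again in the adult, whereas Npas4 was highest at P10. Nr4a1 stood at 10.8, 15.3, 45.3 and 133 CPM. Arc, at 0.306, 1.12, 11.3 and 94.6 CPM, was the gene with the widest adult over P10 ratio in this class, at 8.38-fold (7.99 to 8.79). Npas4 stood at 3.36, 6.16, 13.3 and 10.7 CPM, with an adult over P10 ratio of 0.807 (0.7535 to 0.864). Arc was a minor transcript at P10, below 8 of the other 9 genes, though its interval overlapped those of Fosb and Egr2, and the fourth most abundant of the 10 in the adult.

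Read against all genes, the Glutamatergic difference between P4 and P10 was shared by the whole set. Of the 10382 genes that passed the filter for this comparison (a mean of at least 5 CPM and at least 10 UMIs over both groups), 6.17% were at least 2-fold higher at P10, and all 10 immediate early genes were among them, with a median log2 ratio of 2.51 against -0.10 for all genes tested. Npas4 was the smallest of them, at 2.15-fold (2.01 to 2.315). It fell below 2-fold, to 0.96 on the log2 scale, without the 1% of cells richest in UMIs of these genes. Fosb, Arc and Egr2, at 0.707, 1.12 and 2.65 CPM at P4, passed the filter only through their P10 level. From such P4 levels a gene could pass only by being past 2-fold, so their calls carry no weight of their own. In other comparisons too, a gene low in 1 group can pass through the other group alone. Between P10 and adult, 3 of 10 (Arc, Nr4a1 and Egr1) were at least 2-fold higher against 7.64% of genes, with a median of 0.52. Between P1 and P4, only 4 of the 10 passed the filter and 3 of these (Junb, Egr1 and Egr3) were at least 2-fold higher, against 3.98% of genes. Junb, at 2.98 CPM at P1, passed only through its P4 level, so its call there carries no weight of its own.

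The share of a gene's UMIs held by its richest cells depends on how many UMIs the gene has, so that genes are not compared by it. In the adult, the 1% of cells with the most UMIs of a gene held 36.5% of all Npas4 UMIs, 27.2% of Egr2 and 14.8% of Fos, 5.41% of Egr1 and 6.03% of Egr3. At P4 it was 42.9% of 957 Fos UMIs and 17.2% of 4841 Egr1 UMIs, with single cells reaching 15 and 20 UMIs.

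Glutamatergic divisions, named by markers of projection class, differed in level at P4, P10 and in the adult. In the adult, intratelencephalic (IT) cells held 688.5 CPM of Egr1, 332 of Egr3, 75.7 of Egr4 and 162.5 of Nr4a1. Layer 6 corticothalamic (L6 CT) cells held 774 CPM of Egr1 and 140 of Arc, above the 104 CPM of Arc in IT cells, while their Egr3 (167 CPM) and Egr4 (29.1 CPM) were below those of IT cells. Layer 5 pyramidal tract (L5 PT) cells held 269 CPM of Egr1 and 45.7 of Arc, and layer 5 near-projecting (L5 NP) cells were lowest, at 128 CPM of Egr1, 26.9 of Arc and 45.0 of Egr3. No interval of these Egr1 levels overlapped another. At P10, L5 NP cells were also lowest among IT, L5 PT, L6 CT and L5 NP for Egr1 (48.7 CPM against 149 to 302) and for Fos (16.25 CPM against 23.9 to 44.5). The 67 layer 6b cells of P10 held the most Fos of all divisions, at 66.9 CPM (55.6 to 79.7), and 157.5 CPM of Egr1.

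At P4, L6 CT and layer 6b cells were ahead for Fos and Egr1, whereas at P10 layer 6b cells were ahead for Fos and IT cells for Egr1. Layer 6b cells held 19.2 CPM of Fos and L6 CT cells 13.3, against 2.96 in IT cells and 2.83 in L5 NP cells. Egr1 stood at 60.25 CPM in L6 CT and 41.9 in layer 6b cells, against 23.2 in L5 PT, 21.1 in IT and 4.53 in L5 NP cells. Egr3 ran the other way, with 56.9 CPM in IT and 57.3 in L5 PT cells against 9.17 in L6 CT and 6.77 in layer 6b cells. From P4 to P10, Fos in IT cells went from 2.96 to 44.5 CPM and Egr1 from 21.1 to 302 CPM, against 189.5 CPM of Egr1 in P10 L6 CT cells. The IT division held different clusters at P10 and in the adult: the adult Glutamatergic cluster with the most cells (1881, led by Rxfp1, C1ql3 and Nptx2, with Rspo2) took no division name, while a P10 cluster of 1358 cells that also had C1ql3 and Rspo2 among its leading genes was counted as IT. The part of this in the levels by division was not tested. A cluster of 228 adult cells, of which Scrublet marked 75.4%, was kept out of the classes. Its leading genes began with Bdnf, Camsap3, Adcyap1, Nptx2 and Egr1. It held 624.5 CPM of Egr1, 105.7 of Arc and 56.1 of Fos, against 570, 94.6 and 56.6 CPM in all adult Glutamatergic cells.

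In GABAergic cells, the inhibitory neurons, Fos was the gene closest to its Glutamatergic level at P10 and in the adult. It stood at 1.61, 9.15, 31.7 and 43.9 CPM at P1, P4, P10 and in the adult, which was 174% of the Glutamatergic level at P4, 79.5% at P10 and 77.7% in the adult. Egr1 stood at 3.11, 15.75, 39.1 and 134 CPM, Egr3 at 1.29, 11.5, 23.85 and 32.4 CPM, and Arc at 0.161, 1.38, 3.18 and 17.1 CPM. Npas4 was highest at P4, at 6.51 CPM, and stood at 4.47 CPM at P10 and 2.39 CPM in the adult. Between P4 and P10, 5 of the 7 genes that passed (Fos, Junb, Egr1, Egr3 and Egr4) were at least 2-fold higher, against 5.26% of genes. When cells marked as doublets by Scrublet were removed, only Fos remained past 2-fold (log2 ratio 1.61 against 1.79 with them), and Egr1 stood at 0.50 and Egr4 at 0.27. As a share of the Glutamatergic level, Egr3 (24.3% at P4 and 12.2% at P10) lay within the range of the glutamatergic markers at both ages, a background set out in the next paragraph. The interval of Egr4 (16%) at P10 overlapped that range. The summed glutamatergic markers of the class went from 689.8 CPM at P4 to 400.5 CPM at P10, and the part of these in the differences was not tested. Between P10 and adult, Arc and Egr1 were at least 2-fold higher, against 6.49% of genes, and between P1 and P4 Fos, Egr1 and Egr3 were, against 5.07%. Arc, at 3.18 CPM at P10, passed the filter only through its adult level. Fos, Egr1 and Egr3, at 1.61, 3.11 and 1.29 CPM at P1, passed only through their P4 level. From such levels a gene could pass only by being past 2-fold, so these calls carry no weight of their own. Adult cells of the Sst/Pvalb division held 144 CPM of Egr1 and 45.95 of Fos, and those of the Vip/Lamp5 division 109 and 39.0 CPM.

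Free RNA from broken cells can reach every well, so the level that other classes show of purely glutamatergic genes was measured beside the members. The 7 glutamatergic markers, among them Slc17a7, Slc17a6, Neurod6, Neurod2, Tbr1 and Sv2b, stood in adult GABAergic cells at 11.2 to 13.9% of their Glutamatergic level. The range was 15.1 to 22.8% in adult astrocytes, 20.1 to 39.8% in OPC, 8.13 to 12.1% in oligodendrocytes, 9.89 to 19.3% in microglia and 40.1 to 48.4% in vascular cells. A member whose own interval lay above all marker intervals was counted as above the marker range, and otherwise as within it unless it lay below all of them. A gene with few UMIs can thus count as within the range while its level lies outside it. Doublets add to this range as free RNA does. In adult GABAergic cells 9 of the 10 genes lay above the range, all but Egr3 (12.9%), against 98.9% of all genes tested. Lying above the range is thus the rule for genes of any kind, and nothing particular to the members is read from it.

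**Figure D2:**
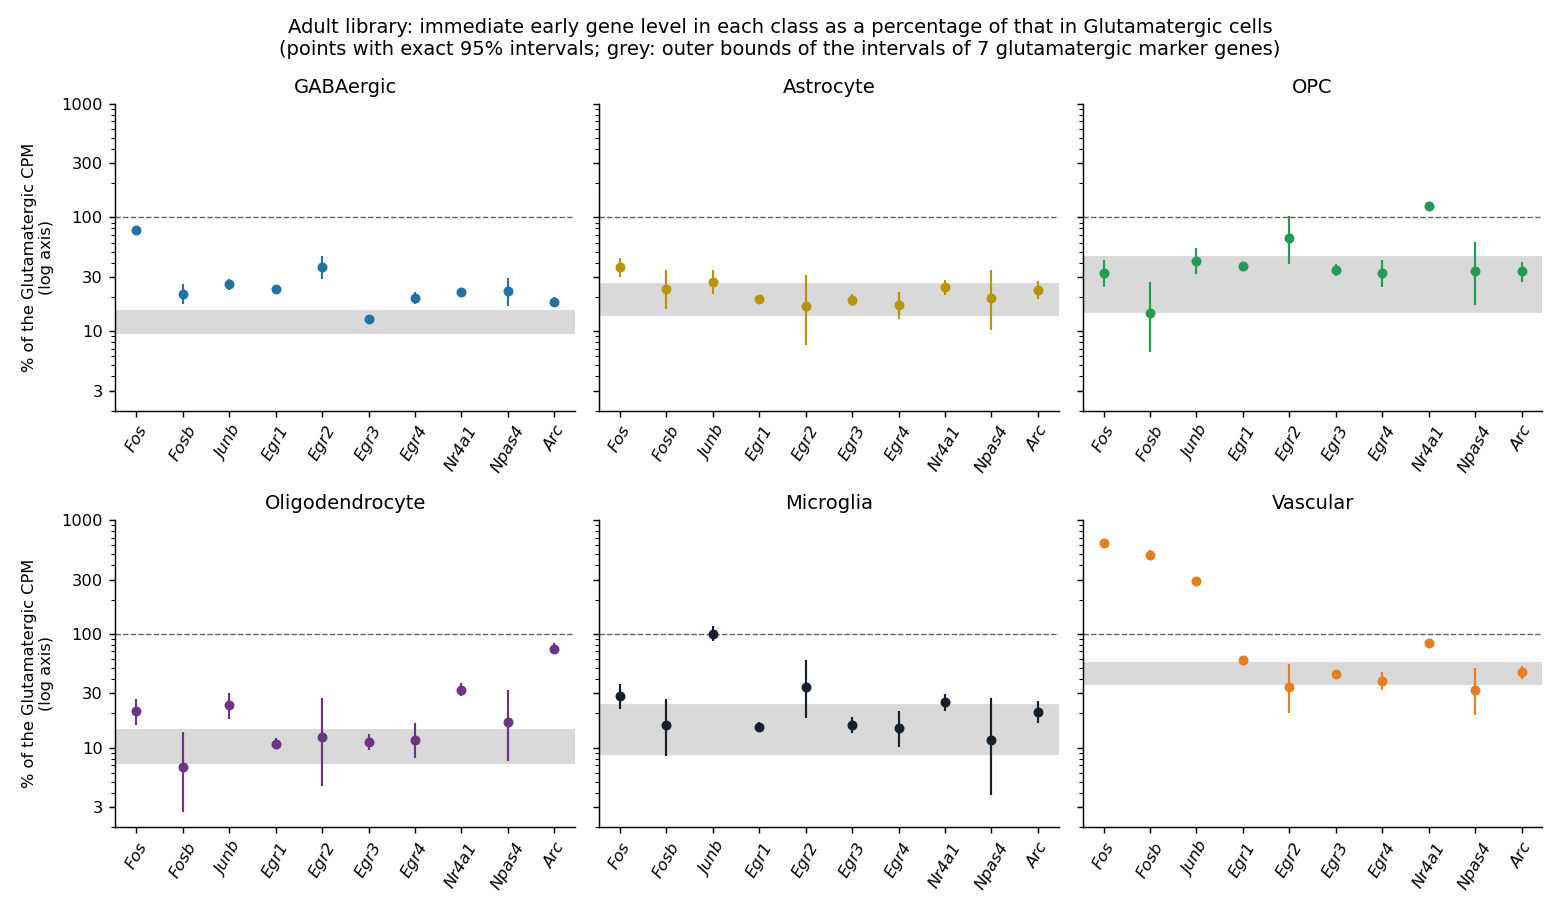
Level of each gene in 6 classes of the adult library as a percentage of its Glutamatergic level (log axis), with exact 95% intervals; the grey band spans the intervals of the 7 glutamatergic markers in the same class, and the dashed line marks 100%. Fos (627%), Fosb (495%) and Junb (291%) of vascular cells, Nr4a1 of OPC (125%), Junb of microglia (100%) and Arc of oligodendrocytes (74.1%) stand above the band, while the intervals of most other points of the non-neuronal classes overlap it.

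In adult glia most members did not lie above the marker range. In astrocytes only Fos lay above it, at 36.4% (30.1 to 43.7%), against 88.2% of all genes. In OPC only Nr4a1 did, at 125% (114 to 136%), against 89.8%, and in microglia only Junb, at 100% (86.4 to 116%), against 81.3%. In oligodendrocytes 4 genes did, against 89.5%: Arc at 74.1%, Nr4a1 at 32.3%, Junb at 23.5% and Fos at 20.8%. Npas4, the gene most tied to neurons, and Egr2, Egr3 and Egr4 did not lie above the range in any of the 5 non-neuronal classes of the adult. For Npas4 and Egr2 this rests on 5 to 19 and 6 to 19 UMIs per class, with wide intervals. Egr2 of OPC stood at 6.27 CPM, against 9.60 CPM in Glutamatergic cells. No member was below the range in any class at any age. The counts of genes at least 2-fold lower than in Glutamatergic cells were 9 of 10 in GABAergic cells (6.97% of all genes), 10 of 10 in astrocytes (21.2%), 8 of 10 in OPC (7.75%), 9 of 10 in oligodendrocytes (26.6%) and 9 of 10 in microglia (27.2%). In some of these classes Fosb, Npas4 and Egr2 passed the filter only through their Glutamatergic level.

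At P10 the list of genes above the range was longer in some classes. In P10 OPC, Fos, Junb, Nr4a1, Egr1 and Egr2 lay above it, against 95.2% of all genes. In P10 microglia, Fos, Junb and Egr2 did, against 86.4%, and in P10 astrocytes, Fos, Npas4 and Nr4a1 did, against 91.5%. In P10 vascular cells Fos, Junb, Nr4a1 and Egr1 did, against 85% of all genes. In P10 GABAergic cells 9 of 10 genes were at least 2-fold lower than in Glutamatergic cells, against 5.16% of all genes, and 7 lay above the marker range, against 99.5%. Of the 9 lower genes, Fosb, Arc and Egr2 passed the filter only through their Glutamatergic level. Arc (73.7%) and Nr4a1 (145%) were already above the range in P10 oligodendrocytes, a class of 272 cells, against 87.8% of all genes.

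OPC, the dividing glia that give rise to oligodendrocytes, held more Egr1 than Glutamatergic cells at P1 and P4 and more Nr4a1 at each age. Within the P1 library, with 154 OPC, the 3 genes that passed were all at least 2-fold higher, against 18.5% of all genes. These were Egr1, Nr4a1 and Egr3, whose Glutamatergic levels at P1 were 4.66, 10.8 and 6.37 CPM. At resolution 1.0 the log2 ratio of Egr3 there was 0.62. Egr1 stood at 138, 406, 203 and 215 CPM at P1, P4, P10 and in the adult. It was 15.3-fold (14.6 to 16.1) above the Glutamatergic level at P4, and below it at P10 (0.837-fold) and in the adult (0.377-fold). Nr4a1 stood at 41.6, 50.8, 122 and 165 CPM, above Glutamatergic cells by 3.32-fold at P4, 2.68-fold at P10 and 1.25-fold in the adult. Fos (3.725-fold) and Egr2 (3.025-fold) were the other 2 of the 4 genes at least 2-fold higher than in Glutamatergic cells at P4, where 18% of all genes were. Egr2, at 2.65 CPM in Glutamatergic cells, passed the filter only through its OPC level. In the same comparison 1, Egr4 (2.44 against 7.97 CPM), was at least 2-fold lower, against 6.89%, and passed only through its Glutamatergic level. At P10 Nr4a1 alone was at least 2-fold higher, against 27.7%, and 8 of 10 were lower, against 13.1%. Of these 8, Fosb, Arc and Npas4 passed only through their Glutamatergic level.

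The course of the genes in OPC over age differed from that in neurons. Between P4 and P10, 2 of the 7 genes that passed (Nr4a1 at 2.40-fold and Egr4 at 4.675-fold) were at least 2-fold higher, against 4.35% of genes. Egr4, at 2.44 CPM at P4, passed the filter only through its P10 level, so its call carries no weight of its own. Egr1 was 0.501-fold (0.463 to 0.542), Egr2 0.523-fold and Egr3 0.7185-fold. Between P10 and adult, Arc (10.45-fold), Egr3 (2.60-fold) and Junb (2.06-fold) were higher, against 7.31%. Arc, at 3.03 CPM at P10, passed the filter only through its adult level. Removing Scrublet-marked cells took Nr4a1 between P4 and P10 to a log2 ratio of 0.89, and Egr3 and Junb between P10 and adult to 0.07 and 0.41. Egr4 between P4 and P10 went the other way, to 5.33 from 2.23, and did not lie above the glutamatergic marker range at either age. In the same class, the summed oligodendrocyte markers went from 1009 CPM at P4, with Opalin at 0, to 120.7 at P10 and 1137 in the adult, and the 7 glutamatergic markers from 990.1 to 422.5 and 1350 CPM. Scrublet marked 15.8%, 0.377% and 11.1% of its cells at these ages. The part of these shifts in the differences was not tested.

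The vascular class, made of endothelial and mural cells, had wider adult over P10 ratios of Fos and Fosb than any other class. Its summed endothelial and mural markers stood at 8571 and 8831 CPM at P1 and at 8605 and 5827 CPM at P4. The part of this makeup in the levels by age was not tested. Fos stood at 6.65, 6.85, 19.9 and 355 CPM at P1, P4, P10 and in the adult. Fosb stood at 1.85, 0.311, 4.635 and 103 CPM, and Junb at 38.0, 22.4, 37.1 and 141 CPM. The adult level stood above those of P4 and P10 for each of these 3 genes, with no overlap of the intervals. Adult over P10, Fos was 17.9-fold (14.5 to 22.3), Fosb 22.2-fold (14.4 to 36.2) and Junb 3.80-fold (3.21 to 4.52).

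Egr1 in vascular cells stood at 29.5, 40.5, 97.1 and 334.5 CPM, and Nr4a1 at 11.1, 20.5, 28.7 and 110 CPM. Arc, with no UMI at P1 and P4, stood at 3.31 CPM at P10 and 43.5 CPM in the adult. In all, 6 of the 8 genes that passed were at least 2-fold higher in the adult than at P10, against 10.4% of genes, with a median log2 ratio of 1.93. Npas4 was not among those that passed, with 3.53 CPM at P10 and 3.44 CPM in the adult, nor was Egr2 (3.75 and 3.26 CPM). Fosb (4.635 CPM at P10) and Arc passed the filter only through their adult level.

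The adult vascular class thus stood above adult Glutamatergic cells for the AP-1 genes alone. Fos was 6.27-fold (5.96 to 6.597), Fosb 4.95-fold (4.515 to 5.43) and Junb 2.91-fold (2.70 to 3.14) higher, and these 3 of 10 compare with 20.5% of all genes. Egr1 (58.7%) and Nr4a1 (82.8%) lay above the marker range of the class, as 77.5% of all genes did, while Arc (46.0%), Egr3 (43.9%), Egr4 (38.5%), Egr2 (34.0%) and Npas4 (32.1%) lay within it. Several measures moved with age in this class: the summed endothelial markers went from 10668 CPM at P10 to 16403 in the adult, the mural markers from 7069 to 3494 and the glutamatergic markers from 828 to 1669, and Scrublet marked 18.3% of its adult cells. An adult cluster of 163 cells was left unnamed as mixed and stayed out of the class. Its leading genes began with Mrc1, Acta2, F13a1 and Myh11, and Scrublet marked 11.7% of it. The part of these shifts and of the cluster left out in the adult levels was not tested. Between P4 and P10, Fos, Egr1, Egr3 and Egr4 were at least 2-fold higher, against 4% of genes. Egr4, at 2.18 CPM at P4, passed the filter only through its P10 level. Once Scrublet-marked cells were removed, the log2 ratio was 0.25 for Fos and 0.92 for Egr1, but 2.35 for Egr3 and 2.48 for Egr4. At P1, 2 of 3 genes that passed were at least 2-fold above Glutamatergic cells, against 23.7% of all genes. These were Junb (38.0 against 2.98 CPM) and Egr1 (29.5 against 4.66 CPM, with 31 of 80 UMIs in 1 cell). Junb passed the filter at P1 only through its vascular level. At P4 only Junb of 6 was higher (22.4 against 7.88 CPM), against 22%, and 2 were lower, against 18.3%. Of these 2, Egr4 passed only through its Glutamatergic level. At P10 none of 10 was higher and 8 were lower, against 18.6%, and Arc of these 8 passed only through its Glutamatergic level.

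Microglia, the resident macrophages, held less Fos, Fosb and Egr1 at P10 than at P4. Fos stood at 86.0 CPM in 77 cells at P4 (63 UMIs), 15.5 CPM in 707 cells at P10 and 16.1 CPM in 1049 cells of the adult. Fosb stood at 15.01, 2.02 and 3.27 CPM, and Egr1 at 104, 46.8 and 86.9 CPM. These 3 genes were at least 2-fold lower at P10, of 7 that passed, against 10.3% of genes, and their P4 intervals lay above those of P10. Fosb, at 2.02 CPM at P10, passed the filter only through its P4 level. Egr3 stood at 16.4 CPM at P4 and 29.3 CPM at P10, Egr4 at 4.09 and 8.09 CPM, and Arc, with no UMI at P4, at 3.71 CPM at P10, with overlapping intervals for each. In the same class, the summed glutamatergic markers stood at 1059 CPM at P4 and 431 CPM at P10, and Scrublet marked 24.7% and 4.38% of the cells; the part of these shifts was not tested. A single P4 cell held 16 of the 63 Fos UMIs (25.4%). Without the 1% of cells richest in UMIs of these genes, the log2 ratio of P10 over P4 was -2.21 against -2.47 for Fos and -1.01 against -2.89 for Fosb.

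At P4 microglia stood above Glutamatergic cells for Fos (16.4-fold), Fosb (21.2-fold, on 11 UMIs in 77 cells), Junb (5.545-fold) and Egr1 (3.91-fold), 4 of the 7 genes that passed, where 22% of all genes did. Fosb, at 0.707 CPM in Glutamatergic cells, passed the filter only through its level in microglia. For 1, Egr3 (log2 ratio -1.53), microglia stood at least 2-fold below, where 15.8% of all genes did. Without the 1% of cells richest in UMIs of these genes, the log2 ratio of Fosb was 3.32 against 4.41 with them. Junb stood at 43.7, 30.0 and 48.5 CPM at P4, P10 and in the adult, a range within which the P4 interval (29.9 to 61.6) overlapped both others. Between P10 and adult, Arc (5.29-fold) and Nr4a1 (2.73-fold) were at least 2-fold higher in microglia, against 4.78% of genes, and both were within the marker range in the adult.

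Arc set oligodendrocytes, the myelinating glia, apart from the other non-neuronal classes. It stood at 8.31 CPM at P10 (20 UMIs) and 70.1 CPM in the adult (352 UMIs), 8.43-fold higher (5.37 to 14.0), and was the only 1 of 7 genes at least 2-fold higher, where 9.26% of all genes were. The adult level of Arc in oligodendrocytes was below that in Glutamatergic cells (94.6 CPM) and above that in vascular cells (43.5), OPC (31.7), astrocytes (21.7) and microglia (19.6). Nr4a1 ran the other way, with 65.7 CPM at P10 and 42.8 CPM in the adult. The makeup of the class moved as well: the summed OPC markers went from 3422 CPM at P10 to 1392 CPM in the adult and the oligodendrocyte markers from 27136 to 72794 CPM, Scrublet marked 18.8% and 7.81% of the cells, and the part of these shifts in either gene was not tested. In astrocytes, Fos and Egr4 were at least 2-fold higher at P10 than at P4 (2 of 6, against 6.3% of genes), and Arc and Egr1 were in the adult (2 of 7, against 5.56%). Egr4 (3.22 CPM at P4) and Arc (1.56 CPM at P10) passed the filter only through the later age. Removing Scrublet-marked cells took Fos between P4 and P10 in astrocytes to a log2 ratio of 0.90 against 1.19 with them, and Egr4 to 2.98 against 1.32. In astrocytes Egr4 did not lie above the glutamatergic marker range at P4 or P10, nor did Egr1 in the adult. In this class the summed glutamatergic markers stood at 1121 CPM at P4, 445.8 at P10 and 655.8 in the adult, Scrublet marked 22.2%, 0.445% and 1.05% of the cells, and the part of these shifts was not tested. The Arc level was at least 5.29-fold higher in the adult than at P10 in each of the 7 classes measured at both ages, but in astrocytes, OPC, microglia and vascular cells the adult level lay within the glutamatergic marker range.

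The proliferating and Eomes-positive classes of P1 and P4 held few UMIs of most of these genes. Proliferating cells held 48.6 CPM of Egr1 at P1 and 31.6 at P4, above the Glutamatergic level at P1 (4.66 CPM) and at P4 (26.5 CPM). Their Fos stood at 5.62 and 5.10 CPM. The 507 Eomes-positive cells of P1, named for Eomes, a transcription factor known from intermediate progenitors of excitatory neurons, also held 3488 CPM of the summed glutamatergic markers against 3660 in Glutamatergic cells, so that the name is not that of a stage. They held no UMI of Arc, Egr2 or Egr4, and their Nr4a1 stood at 7.81 CPM. At P1, Fos was highest in astrocytes, OPC and vascular cells (6.73, 6.66 and 6.65 CPM), whose intervals overlapped one another and that of proliferating cells (5.62 CPM).

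The share of cells with a UMI was compared after each cell was thinned to 2000 UMIs, since median depth ran from 3196 UMIs in adult astrocytes to 29184 in P1 Glutamatergic cells. At least 1 of the 10 genes was found in 4.57%, 16.2%, 57.3% and 69.4% of Glutamatergic cells at P1, P4, P10 and in the adult. Before thinning the shares were 38.8%, 58.6%, 96.4% and 95.4%. In adult vascular cells the share was 71.8% (68.6 to 74.8%), against 28.6% (24.7 to 32.7%) at P10. OPC reached 56.7% at P4 and stayed at 47.7% and 48.9%, whereas adult GABAergic cells (29.7%), astrocytes (32.6%), oligodendrocytes (31.4%) and microglia (32.0%) lay close together.

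Slc17a7, a vesicular glutamate transporter, was counted in the same way to show how far a glutamatergic gene reaches other classes. It stood at 2115 CPM in adult Glutamatergic cells, against 1250 CPM for the 10 genes summed. Its shares are thus not a background of equal level for any member, for 3 or more members or for Fos alone. In the adult it was found in 96.1% of thinned Glutamatergic cells and in 19.8% of GABAergic cells, 34.5% of astrocytes, 33.1% of OPC, 25.2% of oligodendrocytes, 29.1% of microglia and 39.7% of vascular cells. Median depth before thinning was 18555 UMIs in adult Glutamatergic cells, 17433 in GABAergic cells and 3196 to 4876 in the other 5 classes. Cells with 3 or more of the 10 genes were rarer and more uneven: 18% (17.1 to 18.9%) of adult Glutamatergic and 19.7% (17.0 to 22.6%) of adult vascular cells, against 0.891 to 2.29% in the other 5 adult classes. At P10 the Glutamatergic share was 8.87% and the vascular one 1.54%, and at P4 they were 0.283% and 0.685%. Fos alone was found in 38.3% of adult vascular cells, 7.08% of adult Glutamatergic cells and 8.11% of adult GABAergic cells.

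**Figure D3:**
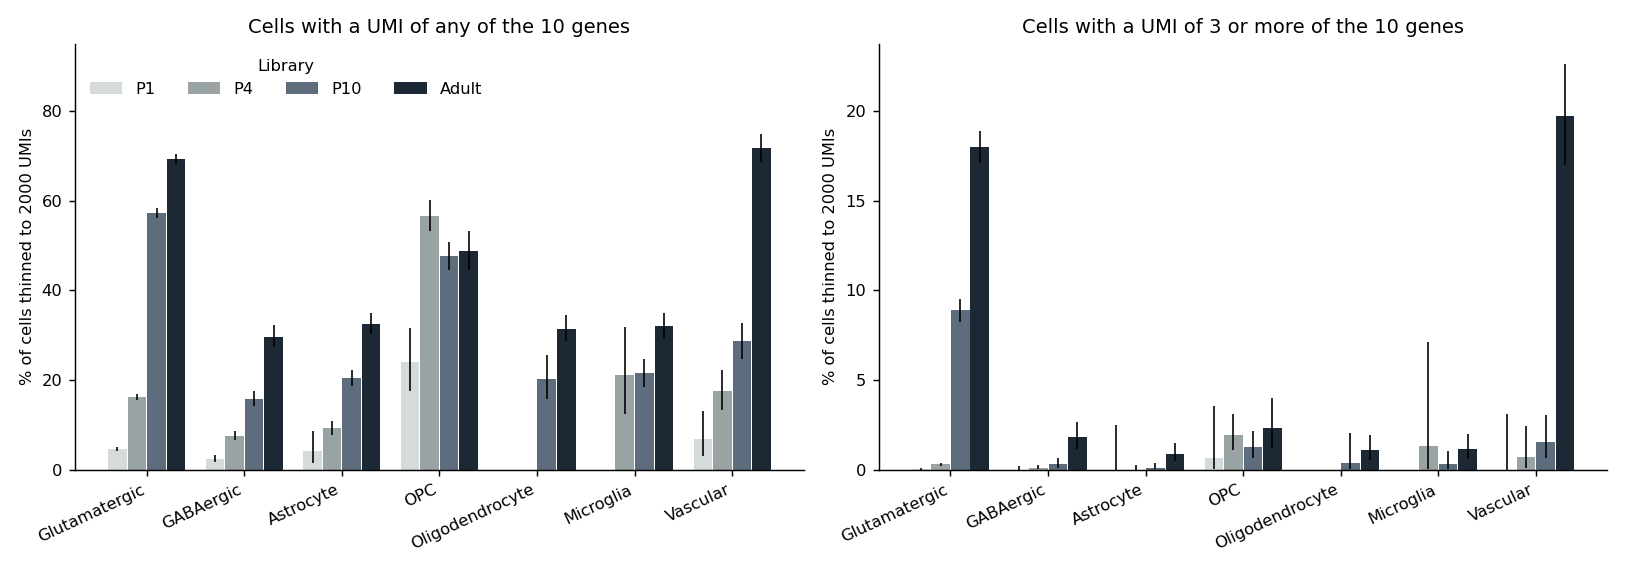
Percentage of cells of each class, thinned to 2000 UMIs, with a UMI of any of the 10 genes (left) and of 3 or more of them (right), 1 bar per library, with exact 95% binomial intervals; classes under 50 cells are not drawn. On the right, adult Glutamatergic (18%) and adult vascular cells (19.7%) stand above all other bars, followed by P10 Glutamatergic cells (8.87%).

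The other genes found in Fos-positive cells were counted in neurons and in vascular cells, and the difference between the classes was not tested. Of the 465 adult Glutamatergic cells with a Fos UMI after thinning, 80.2% also held Egr1, 41.7% Nr4a1, 30.3% Arc and 4.3% Npas4. Of the 6100 cells without a Fos UMI, 45.0%, 14.8%, 12.4% and 1.26% did. Every one of the other 9 members was thus found more often with Fos than without, with intervals that did not overlap. In P10 Glutamatergic cells the same held for Egr1 (54.5% against 29.0%), Npas4 (7.66% against 2.02%) and Egr4 (22.6% against 9.11%). Arc there was found in 3.19% of 470 Fos-positive and 2.11% of 6974 other cells, with overlapping intervals. How many of all genes were found more often with Fos was not counted, so nothing particular to the members is read from these shares.

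In the 315 Fos-positive adult vascular cells, Fosb (25.1% against 8.09% of the 507 others), Junb (38.4% against 19.1%), Nr4a1 (23.2% against 12%) and Egr1 (37.5% against 24.7%) were found more often. Arc (3.49% against 5.72%), Egr3 (7.62% against 9.27%) and Npas4 (0.317% against 0.986%) were not. Slc17a7 was found in 32.4% of Fos-positive and 44.2% of other vascular cells, and the endothelial gene Cldn5 in 95.6% and 91.3%. In adult GABAergic cells Egr1 was found in 34.5% of 113 Fos-positive and 13.9% of 1281 other cells, while at P10 it was in 4.35% of 92 and 4.76% of 1889.

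**Figure D4:**
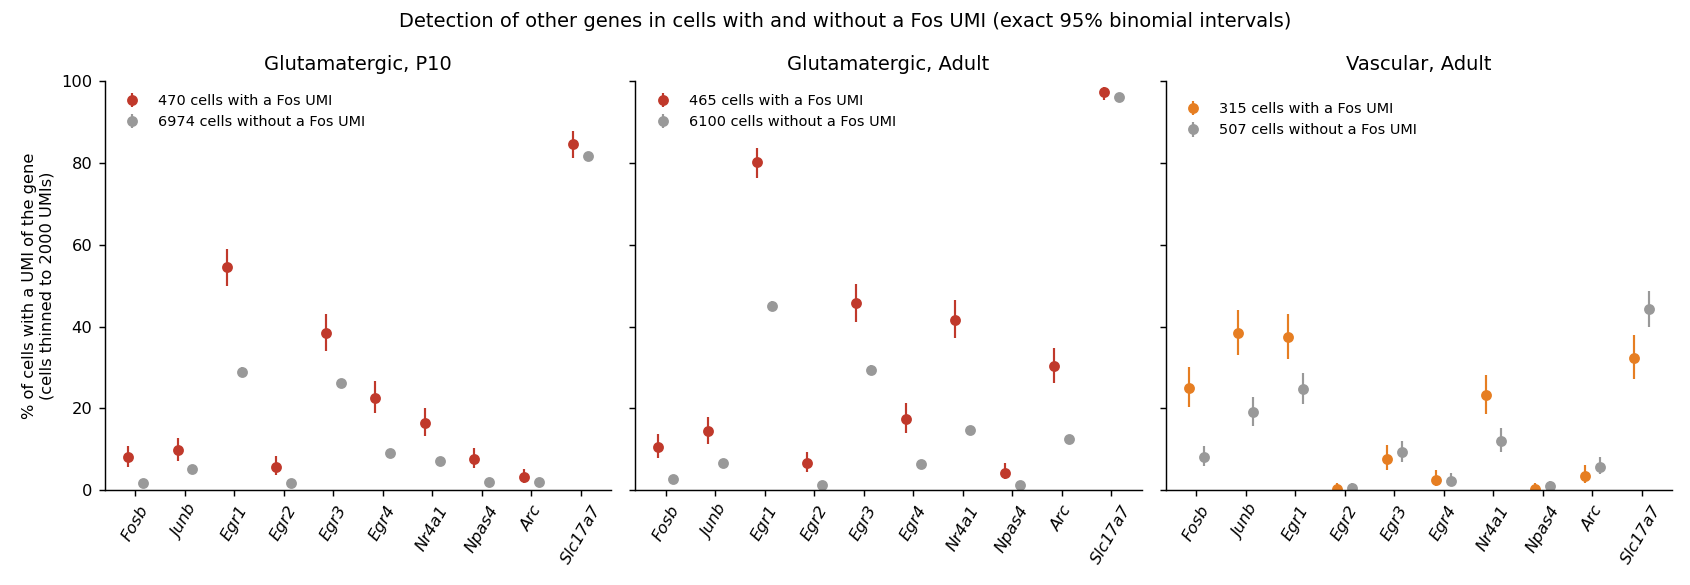
Percentage of cells with a UMI of each other gene among cells with a Fos UMI (coloured) and without one (grey), in P10 Glutamatergic, adult Glutamatergic and adult vascular cells thinned to 2000 UMIs, with exact 95% binomial intervals. Egr1 is in 80.2% of Fos-positive against 45.0% of other adult Glutamatergic cells; in adult vascular cells Fosb, Junb, Egr1 and Nr4a1 are parted and Arc, Egr3 and Slc17a7 are not higher with Fos.

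Other response genes were read from lists kept apart from the 10 members. Of 21 further rapid primary response genes, 13 passed between P4 and P10 in Glutamatergic cells and 1, Klf10, was at least 2-fold higher, against 6.17% of all genes, with a median log2 ratio of 0.54. Of 12 neuronal late response genes, 7 of the 10 that passed were higher, among them Vgf, a secreted neuropeptide precursor (91.9 to 389 CPM), Scg2, a granin (59.3 to 230 CPM), and Nrn1, a membrane-anchored growth protein (8.565 to 146 CPM); 1, Inhba, was lower. Of 11 heat shock genes, 8 passed and none was 2-fold higher or lower, with a median of 0.10. The chaperone genes Hsp90ab1 (2945 and 2982 CPM) and Hspa8 (1595 and 1867 CPM) stood close between P4 and P10. Between P10 and adult in the same class, 4 of 15 rapid genes, 5 of 11 late genes and 2 of 10 heat shock genes were at least 2-fold higher, against 7.64% of all genes.

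In vascular cells the rapid list differed in the adult. Of 20 rapid genes that passed, 11 were at least 2-fold higher in the adult than at P10, against 10.4% of all genes, none was lower, and the median log2 ratio was 1.35. Jun, the usual AP-1 partner of Fos, went from 86.7 to 507.5 CPM in vascular cells and from 45.0 to 103 CPM in Glutamatergic cells, whereas Dusp6, a dual-specificity phosphatase, stood at 260.4 and 214.5 CPM and Klf6, a zinc-finger factor, at 226 and 253 CPM in vascular cells. Of 11 heat shock genes there, 3 (Hspa1a, Hspa1b and Hspb1) were higher, against the same 10.4%, with a median of 0.29. Of 12 late genes, 9 were higher, against the same 10.4%, among them Nrn1 (50.5 to 264 CPM) and Scg2 (91.4 to 229.9 CPM), which stood at 559 and 454 CPM in adult Glutamatergic cells. The adult vascular levels of Nrn1 (47.3% of the Glutamatergic level) and Scg2 (50.6%) lay within the glutamatergic marker range of the class, as did those of the other late genes that were higher except Ptgs2 (136%).

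In microglia, a list of 12 ex vivo response genes, which microglia are known to switch on during dissociation, was set beside the members. Between P4 and P10, 10 passed, 4 (Ccl3, Il1b, Tnf and Rgs1) were at least 2-fold lower, against 10.3% of all genes, and 1, Nfkbiz, was at least 2-fold higher, against 6.63%. Ccl3, a chemokine, stood at 134, 51.9 and 16.6 CPM at P4, P10 and in the adult, and the cytokine Il1a at 40.9, 54.25 and 93.5 CPM. Of 15 upstream regulators, which include MEF2, CREB and SRF pathway genes, 3 of 15 (Mkl2, Camk4 and Nab2) were at least 2-fold higher in Glutamatergic cells at P10 than at P4, against 6.17% of all genes. Camk4, a calcium-dependent kinase, stood at 297, 663 and 385 CPM at P4, P10 and in the adult.

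The genes, other than the 10 members, whose levels ran most like each member were sought over the 21 class-by-age groups of P4, P10 and adult, by Pearson's r of log2(CPM + 10) among 13176 genes; groups of 1 library share its handling and free RNA. Among the members themselves, r was 0.941 for Fos with Fosb and 0.914 for Egr3 with Egr4. For Fos the nearest of the other genes were Sgpp2 (0.782), Xdh (0.777) and Fmo2 (0.770), and for Fosb Ptgs2 (0.875), Xdh and Sgpp2. For Junb they were Anxa11 (0.892), Ly6e and Hipk3. The 4 Egr genes gave 4 lists: C1ql3 (0.809), Cetn4 and Lin7a for Egr1, Prkcb (0.802), R3hdm2 and Klhl3 for Egr2, Sv2b (0.951), Nrgn and Wnt9a for Egr3, and Trbc2 (0.968) and Icam5 for Egr4. Arc ran with Pip4k2c (0.940), Wbp2 and Synj2, Nr4a1 with Gm10118 (0.892), C1ql3 and Vxn, and Npas4 with A830036E02Rik (0.907) and 1700001L19Rik. Fos and Fosb shared 2 of their 3 genes, and Egr1 and Nr4a1 shared C1ql3.

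The genes lie apart in the genome (GRCm38, all annotated as protein coding). Fos is at chr12:85473890-85477273 on the plus strand, Fosb at chr7:19302696-19310051 and Junb at chr8:84974484-84978718, both on the minus strand. Egr1 is at chr18:34859823-34864984, Egr2 at chr10:67535475-67542188 and Egr3 at chr14:70077203-70082614, all on the plus strand, and Egr4 at chr6:85511121-85513589 on the minus strand. Nr4a1 (chr15:101254269-101274795, plus strand) and Arc (chr15:74669083-74672570, minus strand) share a chromosome, and Npas4 is at chr19:4984355-4990316 on the minus strand.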

How the data were processed

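The deposited files are raw UMI counts per cell, 1 matrix per age, which the authors made with the BD Rhapsody pipeline (version 1.11 for P1, 1.8 for P4, P10 and adult) against GRCm38 with GENCODE M19. All values were whole, no column belonged to another series, and a gene missing from a matrix was taken as 0. Total UMIs were 340724049, 273834131, 287594712 and 200198548 at P1, P4, P10 and in the adult. Between 12 and 368 cell indices were shared by pairs of libraries.

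Cells with at least 1000 UMIs, 1000 genes and at most 15% mitochondrial UMIs were kept, as in the study's methods: 11545 of 11673, 19014 of 19646, 15272 of 16114 and 14087 of 15961. Scrublet (expected rate 0.06, scanpy 1.11.5) marked 5.11 to 9.41% of them, which were kept. Clusters were made per library from 2000 variable genes without the 10 genes and the other lists, 30 principal components, 20 neighbours and Leiden resolution 0.5 (igraph 0.11.9, seed 1). A cluster took the name of its leading marker list, by relative level and then by markers among its 10 leading genes. The blood list was passed over where the next list had a relative level of at least 0.4. An adult cluster of 46 cells led by Hba-a1 and Hba-a2 was thus counted as Glutamatergic, in the IT division. A named cluster could tie with another list by level (the P4 OPC and P10 oligodendrocyte clusters with each other's list, and vascular clusters with the blood or fibroblast list), and the P1 astrocyte cluster stood near the ependymal list. Clusters with at least 50% Scrublet marks stayed unnamed. A cluster also stayed unnamed where its leading list had too low a level or too few markers. Others stayed unnamed for low depth, for leading genes of another list, or for a mix of lists. The naming thresholds were set after cluster scores, but not the levels of the 10 genes, had been seen. The members and all lists were chosen with earlier results of these data known.

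UMIs were summed per class and divided by the class total (numpy 2.4.6, scipy 1.17.1). Levels carry exact Poisson intervals, ratios exact conditional binomial ones and shares Clopper-Pearson ones, all at 95%. These cover counting error only, since cells are not replicates. A fold of 2 is a rule of size, not a test. Against a level of 0 UMIs a floor of 3 UMIs was used. The scripts were tested on simulated data. Of each other list, genes are named from the 4 of highest mean CPM, and genes named as the few that passed 2-fold were chosen after their values were seen. For likeness, up to 3 genes per member are named. A few genes that these rules name are not reported here. Alternatives were a stricter cell filter, removal of Scrublet-marked cells, resolution 1.0, the genes admitted to clustering, per-cell mean CPM, all genes in the denominator, removal of the top 1% of cells, a fold of 1.5, no filter on mean CPM, and other thinning depths. Keeping the Glutamatergic clusters with many Scrublet marks was added after seeing the data. Under the stricter filter, the removal of Scrublet-marked cells and the genes admitted to clustering, clusters were made and named anew. Class membership thus changed as well.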

Additional observations from a re-analysis of the deposited data

Results flagged for a closer look

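Between P4 and P10, Fos, Fosb and Egr1 stood at least 2-fold lower in microglia and at least 2-fold higher in the classes named below. In OPC Egr1 was also lower, at 0.501-fold, not past the 2-fold rule. The log2 ratio of P10 over P4 for Fos was -2.47 in microglia against 2.93 in Glutamatergic cells, 1.79 in GABAergic cells, 1.19 in astrocytes and 1.54 in vascular cells. For Fosb it was -2.89 in microglia against 4.06 in Glutamatergic cells. For Egr1 it was -1.15 in microglia against 3.20 in Glutamatergic cells, 1.31 in GABAergic cells and 1.26 in vascular cells. With Scrublet-marked cells removed, the ratio was 0.90 for Fos in astrocytes, 0.25 for Fos and 0.92 for Egr1 in vascular cells, and 0.50 for Egr1 in GABAergic cells, all under 2-fold, against -2.20 for Fos, -1.86 for Fosb and -1.60 for Egr1 in microglia. The difference between the classes was not tested, as each age is 1 library, and the P4 microglia are 77 cells.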

How the results depend on the processing

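No paired analysis was possible because each age is 1 library, and leaving out a replicate was not possible for the same reason. Of 1498 values of the 189 gene ratios past 2-fold under the alternatives, 1494 kept their direction and 28, in 16 ratios, came under 2-fold. At resolution 1.0 the log2 ratio of Nr4a1 in P1 astrocytes over Glutamatergic cells turned to 0.30, and those of P4 over P1 in astrocytes turned to -0.57 for Nr4a1 and -1.94 for Egr1 (-1.11 for Egr1 with the genes admitted to clustering). Without the filter on mean CPM, the genes at least 2-fold higher at P4 than at P1 went from 3 to 7 in Glutamatergic cells, from 3 to 9 in GABAergic cells and from 7 to 15 summed over astrocytes, OPC and vascular cells. Without it those higher at P10 than at P4 went from 8 to 14 over these and microglia (16 at a fold of 1.5), and those above Glutamatergic cells at P1 from 5 to 15 over GABAergic cells, astrocytes, OPC and vascular cells. With per-cell mean CPM the GABAergic count between P1 and P4 was 1, with the genes admitted to clustering the non-neuronal one was 2, and with Scrublet-marked cells removed the GABAergic count between P4 and P10 went from 5 to 1. The share of cells with any of the 10 genes moved with the thinning depth, at which shallower cells are left out. Thinned to 5000 UMIs and unthinned, the Glutamatergic share was 9.71 and 38.8% (P1), 33 and 58.6% (P4), 80.1 and 96.4% (P10), and 87.2 and 95.4% (adult). It was 32.7 and 64.6% in P10 GABAergic cells, 50.5 and 79.8% in adult ones, 76.8 and 82.4% in P4 OPC, 40.6 and 39.2% in P10 microglia, 56.7 and 50.3% in adult microglia, and 88.5 and 86.2% in adult vascular cells. Removing Scrublet-marked cells gave 13.2% in P10 and 26.7% in adult GABAergic cells and 60.3% in P4 OPC. The cause of these shifts was not tested.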
